A study of Mus musculus with 27 samples.

Results

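The genes described here encode the machinery of DNA replication and S phase, followed in mature adipocytes of 3T3-L1, a mouse preadipocyte line that turns into fat cells in a dish, over 48 h with rosiglitazone at 1 µM. This antidiabetic drug is a ligand of PPARγ, a nuclear receptor at the center of the adipocyte program. The 37 members were named by symbol, and 33 of them had a probe set annotated to that symbol alone, out of 18781 such genes on the array. The other 4, Gins2, Rfc4, Tyms and Ccne2, were represented by probe sets shared with another gene and are given separately. The 27 Affymetrix Mouse Gene 1.1 ST arrays made up 9 groups, each with 3 arrays. One group was untreated (time 0), and in the other 8 the drug had been present for 30 min, for 1 h, 2 h or 6 h, for 12 h or 24 h, or for 36 h or 48 h. All groups had been through the same differentiation with dexamethasone, insulin and 3-isobutyl-1-methylxanthine, and the drug was supplied in DMSO. The series' design text speaks of cells given rosiglitazone or DMSO, but none of the arrays used here is labelled as DMSO alone. Each time was therefore set against the time 0 arrays, labelled as without treatment, and the drug cannot be told apart from time in culture, vehicle and handling.

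Before a cell copies its DNA, origin recognition proteins, Cdc6 and Cdt1 load the ring of Mcm2 to Mcm7 onto origins, and Cdc45 and the GINS complex then turn that ring into the active helicase. DNA polymerases, the sliding clamp PCNA with its loader, enzymes that join the lagging strand and enzymes that supply deoxynucleotides follow, and histone chaperones rebuild chromatin behind the fork. Transcription of many of these genes is driven at the G1/S transition by E2F factors, which retinoblastoma proteins hold back in resting cells. The 3T3-L1 line divides for a short period after the differentiation cocktail is added and then leaves the cell cycle as it becomes adipocytes.

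The promoters of 5 members are shown because the members moved in different ways and 4 of the 5 stretches held letters of an E2F pattern. The sequences are from RefSeq on GRCm38.p6, 5′ to 3′ on the strand of the gene, counted from the annotated start of transcription, and all lie upstream of that start. Capitals mark matches to the 4 patterns TTTCCCGC, TTTCGCGC, TTTGCCGC and TTTGGCGC on either strand. Mcm5, Mcm6 and Rrm2 fell after 24 h or more of drug, and Gins3 and Rfc3 were not called against untreated at any time or by the F-test over the course.
Mcm5, chr8:75109339-75109467, plus strand: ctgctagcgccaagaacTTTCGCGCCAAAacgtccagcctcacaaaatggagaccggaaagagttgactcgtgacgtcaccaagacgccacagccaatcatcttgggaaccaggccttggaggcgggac
Mcm6, chr1:128359706-128359835, minus strand: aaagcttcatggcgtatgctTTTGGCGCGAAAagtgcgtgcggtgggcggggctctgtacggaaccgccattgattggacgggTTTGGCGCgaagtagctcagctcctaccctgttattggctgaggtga
Rrm2, chr12:24708124-24708253, plus strand: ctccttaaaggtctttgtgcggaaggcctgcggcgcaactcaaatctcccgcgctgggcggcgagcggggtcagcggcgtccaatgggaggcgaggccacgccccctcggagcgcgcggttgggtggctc
Gins3, chr8:95633429-95633558, plus strand: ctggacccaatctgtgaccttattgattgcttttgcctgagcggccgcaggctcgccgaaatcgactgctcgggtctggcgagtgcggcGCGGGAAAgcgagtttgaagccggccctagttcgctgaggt
Rfc3, chr5:151651209-151651338, minus strand: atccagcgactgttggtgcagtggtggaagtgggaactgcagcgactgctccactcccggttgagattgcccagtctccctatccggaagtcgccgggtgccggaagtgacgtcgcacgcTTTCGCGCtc
The 12-letter runs in Mcm5 and Mcm6 each hold 2 overlapping matches on opposite strands, and the stretch of Mcm6 holds 1 more. Over windows of 300 bases (250 before the start and 50 from it), an E2F match was found in 13 of the 30 measured members with a window (43.3%). The same patterns were found in 704 of 27025 genes (2.60%) and in 575 of 17492 protein-coding genes (3.29%). By each gene's window of highest GC content, the median was 61.3% in measured members, 53.3% in all genes and 57.3% in protein-coding genes. The patterns themselves are rich in G and C. Among the members that were lower at 48 h the match was present in 6 of 12, and among the other measured members in 7 of 18 (38.9%). Those other members include Cdc45 and Chaf1b, which were lower at 36 h. The mitotic pattern TTTGAA (CHR) was found in 16.7% of measured members with a window against 20.2% of all genes, and CCAAT, the letters bound by NF-Y, in 63.3% against 41.1%. By the same split at 48 h, CHR was present in 0 of 12 lower members and 5 of 18 others (27.8%), and CCAAT in 8 of 12 and 11 of 18. These differences were not tested. A match is a description of the letters in the window.

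The members were called lower from 24 h on in larger shares than all genes. Before that the calls were fewer, and those at 6 h and 12 h were mostly of higher levels. Of these higher calls, 1 of 4 at 6 h and 4 of 7 at 12 h held with each single array left out in turn. Their number also depended on the baseline and the fit, as given in the last section. The members were chosen with earlier results of these data known, and other replication genes, given below, moved both ways. The direction of the mean change was down in 26 of 33 members at 24 h and 36 h and in 27 at 48 h. The share of all genes that went down was not counted, and their median change at these times was -0.004, 0.006 and 0.013. At 30 min, 1 h and 2 h, 0 of 33 members were called in either direction by limma at an adjusted p below 0.05. The share of all genes called higher and lower was 0.0479% and 0% at 30 min, 0.474% and 0.516% at 1 h, and 3.04% and 2.87% at 2 h. At 6 h the share of members called was near that of all genes: 4 members were higher (12.1%, against 8.39% of all genes) and 1 was lower (3.03%, against 8.18%). At 12 h, 7 were higher (21.2%, against 9.48%) and 1 was lower (3.03%, against 9.38%). At 24 h the balance had turned, with 12 members lower (36.4%, against 10.5% of all genes) and 2 higher (6.06%, against 10.1%). At 36 h, 15 were lower (45.5%, against 10.5%) and 1 was higher (3.03%, against 10.9%). At 48 h, 14 were lower (42.4%, against 11.4%) and 1 was higher (3.03%, against 12.6%). The median change of the 33 members was -0.13, -0.21 and -0.20 at 24 h, 36 h and 48 h, on the log2 scale, beside -0.004, 0.006 and 0.013 for all genes. Over the whole course, the F-test of limma called 24 of 33 members (72.7%), against 40.5% of all genes.

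**Figure D1:**
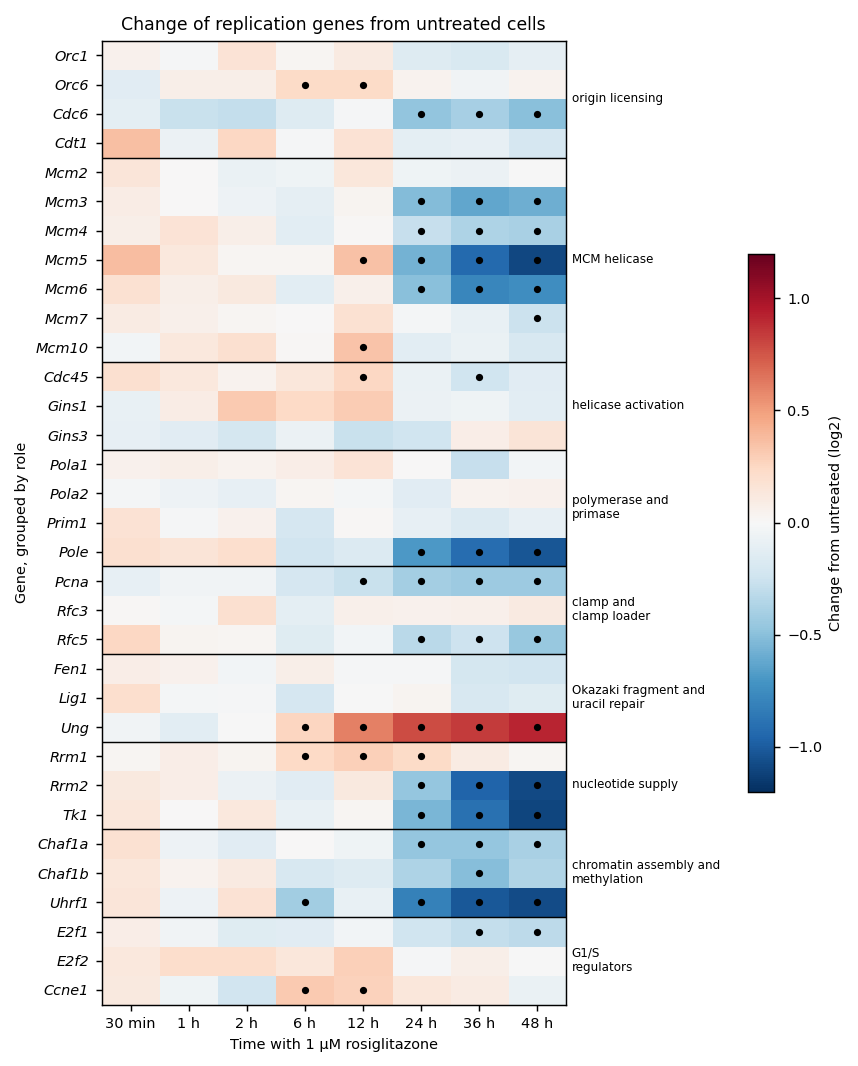
Change of each of the 33 replication genes from untreated cells (color, log2, mean of 3 arrays per group) at each time with rosiglitazone, ordered by role, with a dot where limma's adjusted p was below 0.05. Most dots lie in the blue fields of 24 h, 36 h and 48 h, while Ung is red from 6 h on.

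All 8 comparisons share the untreated arrays, so they are not independent of each other. The same 12 genes were lower at all 3 late times: Cdc6, Mcm3, Mcm4, Mcm5, Mcm6, Pole, Pcna, Rfc5, Rrm2, Tk1, Chaf1a and Uhrf1. Of the members called lower, the 3 treated arrays lay below all 3 untreated arrays in 12 of 12 at 24 h, 14 of 15 at 36 h and 13 of 14 at 48 h. Over all 33 members, called or not, this was so in 15, 14 and 17. Call and separation come from the same values, so the one is no separate support for the other. The share of all genes separated in this way was not counted. When single arrays were left out in turn, 8 of 12, 10 of 15 and 11 of 14 of the calls of lower members held in every case. With each array centred on its median, 11, 11 and 13 members were lower, and the calls of Mcm4 at 24 h, of Cdc6, Cdc45, Rfc5 and E2f1 at 36 h and of Mcm7 at 48 h were lost, with the direction kept. Changes below are log2 differences ± SE from the fit over 27 arrays, with n = 3 arrays per group.

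Every member was brighter on average than the level that 95% of olfactory receptor genes stayed below (3.2), a reference for genes that fat cells are not known to use. The mean log2 intensity of the members ran from 3.40 for the dimmest to 9.46 for the brightest, and 24 of 33 lay above the median gene at 4.76. Adipocyte markers were high in untreated cells, between 9.73 for Cebpa and 12.23 for Lpl. Of 8 macrophage markers, 2 lay below the olfactory level and the brightest, Cd68, was at 5.02. Nothing in the labels tells separate cultures from repeat arrays, so p-values here reflect array to array spread that may be technical, and precision is limited by the number of arrays. In the deposited values, the means of replicates 1, 2 and 3 over the 9 groups were equal to within 0.0001 for all 28815 probe sets, so a difference between replicate numbers had been taken out. In RNA from whole cultures, fewer cells expressing a gene and less of its RNA per cell cannot be told apart.

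Of the origin licensing genes, Cdc6 fell and Orc6 rose for a time. Cdc6, the loader that brings the Mcm ring to the origin, read 4.39, 4.48 and 4.03 in the untreated arrays, 3.68, 3.87 and 3.91 at 24 h, and 3.78, 4.04 and 3.57 at 48 h. The 24 h arrays lay below all untreated arrays, while 1 array at 48 h lay above the lowest untreated array. Cdc6 fell by 0.47 ± 0.13 at 24 h, 0.40 ± 0.13 at 36 h and 0.50 ± 0.13 at 48 h (limma, adjusted p = 0.00886, 0.0265 and 0.00527). The 24 h call was lost without untreated replicate 2 (-0.38) or 24 h replicate 1 (-0.41), and the 36 h call without untreated replicate 1 (-0.36), untreated replicate 2 (-0.31) or 36 h replicate 2 (-0.25).

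Orc6, the smallest subunit of the origin recognition complex, rose by 0.23 ± 0.07 at 6 h (limma, adjusted p = 0.0299) and as much, 0.23 ± 0.07, at 12 h (adjusted p = 0.0265). Its arrays at 6 h, at 8.11, 8.03 and 8.11, lay above the untreated 7.82, 7.80 and 7.94, and its change at 48 h was 0.04 ± 0.07. The 6 h call was lost with the replicate number as a block and with a further quantile normalization, and leaving out 1 of 4 arrays ended each of these calls. At 6 h these were untreated replicates 1 and 2 and 6 h replicates 1 and 3 (0.20 to 0.22), and at 12 h untreated replicates 1 and 2 and 12 h replicates 1 and 2 (0.16 to 0.23). Orc1, the largest subunit of that complex, was dim, at 3.31 to 4.07 over all arrays, and was not called at any time, with a 48 h change of -0.10 and a 95% interval of -0.36 to 0.15. Cdt1, the partner of Cdc6 in loading, was not called at a single time either, at -0.20 at 48 h (interval -0.50 to 0.10), but changed over the course by the F-test (limma, adjusted p = 0.0276).

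The Mcm genes fell with 1 exception among the 6 subunits of the ring: 5 were lower at 48 h, 4 of them from 24 h on, and Mcm2 was not called. Mcm5 had the largest change of them at 48 h. It read 6.01, 5.89 and 6.06 in the untreated arrays, 6.44, 6.50 and 6.08 at 12 h, 5.39, 5.29 and 5.56 at 24 h, 5.04, 5.02 and 5.10 at 36 h and 4.63, 5.0 and 5.06 at 48 h. Every array from 24 h on lay below every earlier array. Mcm5 fell by 0.57 ± 0.11 at 24 h, 0.93 ± 0.11 at 36 h and 1.09 ± 0.11 at 48 h (limma, adjusted p = 2.67e-04, 3.29e-07 and 2.44e-08), a 2.13-fold lower level at the last time.

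At 12 h Mcm5 had been called higher, by 0.35 ± 0.11 (limma, adjusted p = 0.0210). That call was lost without untreated replicate 2 (0.31), 12 h replicate 1 (0.30) or 12 h replicate 2 (0.27). Mcm5 was as high at 30 min, at 6.52, 6.35 and 6.21, as at 12 h, and against the 30 min arrays the change at 12 h was -0.018 and that at 6 h was -0.35.

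Mcm6 read 5.81, 5.79 and 5.98 without drug, 5.30, 5.20 and 5.58 at 24 h and 4.91, 5.25 and 5.20 at 48 h, with no overlap between treated and untreated arrays. It fell by 0.50 ± 0.11 at 24 h and by 0.75 ± 0.11 at 48 h (limma, adjusted p = 0.00168 and 1.52e-05). Mcm3 read 5.59, 5.68 and 5.59 without drug, 5.05, 5.03 and 5.23 at 24 h and 4.91, 5.16 and 5.05 at 48 h, again without overlap. Its fall was nearly complete at 24 h, at 0.52 ± 0.09 (adjusted p = 1.05e-04), and stood at 0.58 ± 0.09 at 48 h (adjusted p = 2.13e-05). Mcm4 declined less, from 6.94, 6.77 and 6.77 to 6.63, 6.42 and 6.61 at 24 h and 6.24, 6.57 and 6.51 at 48 h. It fell by 0.27 ± 0.09 at 24 h and by 0.39 ± 0.09 at 48 h (adjusted p = 0.0269 and 0.00175), and the 24 h call was lost without untreated replicate 1 (-0.22) or 24 h replicate 2 (-0.21).

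Mcm7 was lower at 48 h only, by 0.25 ± 0.07 (limma, adjusted p = 0.0121), with 7.18, 7.33 and 7.45 against 7.59, 7.55 and 7.58 in untreated cells. The call rested on 48 h replicate 1: without it the change was -0.18 (adjusted p = 0.0977). Mcm2 read 7.22, 7.32 and 7.23 without drug and 7.11, 7.34 and 7.29 at 48 h, so the groups overlapped. Its change at 48 h was -0.01 ± 0.08, with a 95% interval of -0.17 to 0.15, beside intervals of -1.31 to -0.87 for Mcm5 and -0.98 to -0.52 for Mcm6. Differences between subunits were not tested. Mcm10, which is no part of the ring but helps to start the helicase, rose by 0.34 ± 0.08 at 12 h (adjusted p = 0.00447) and was at -0.19 ± 0.08 at 48 h, which was not called (adjusted p = 0.109).

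**Figure D2:**
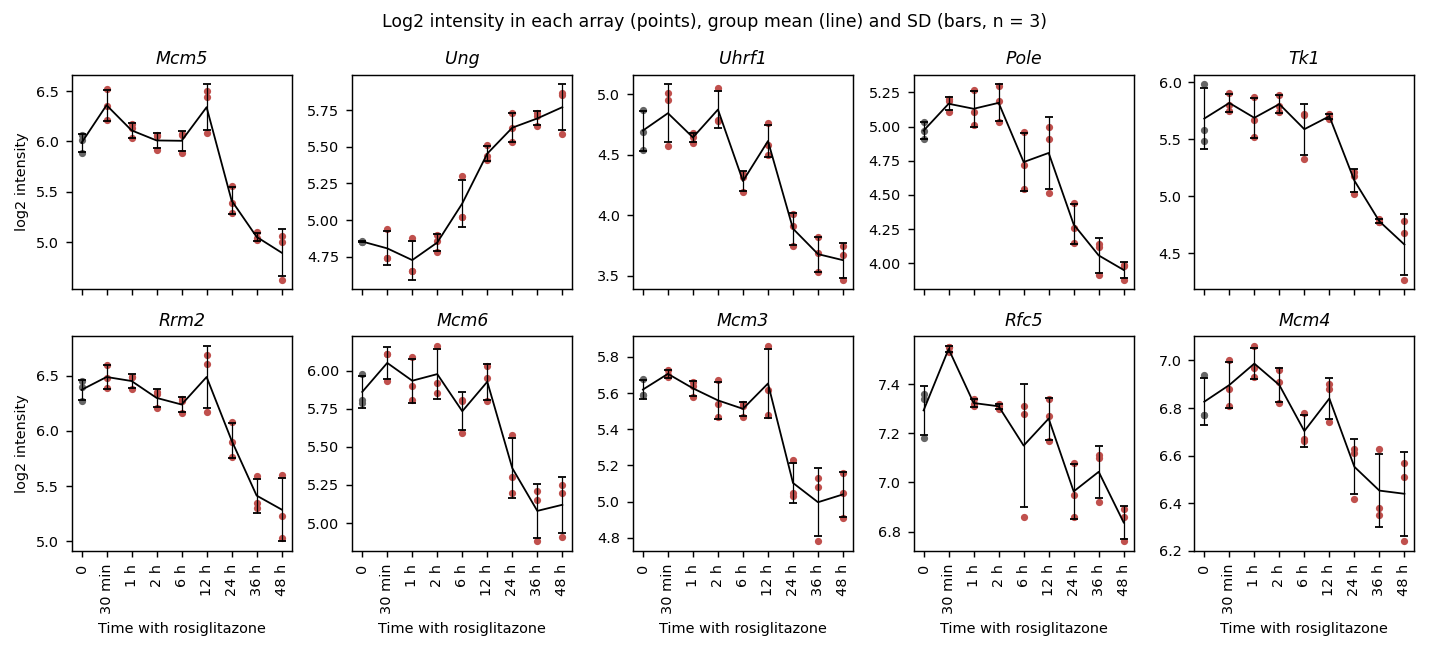
Log2 intensity of the 10 replication genes with the smallest F-test p in each of the 27 arrays (points), with the mean (line) and SD (bars) of each group of 3, against time with rosiglitazone (categories, not to scale). Mcm5, Uhrf1, Pole, Tk1, Rrm2, Mcm6, Mcm3, Rfc5 and Mcm4 are lower at 48 h than at time 0, and Ung is higher.

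Of the genes that activate the helicase, Cdc45 moved both ways. Cdc45, which binds the Mcm ring to form the active helicase, read 5.63, 5.65 and 5.67 without drug, 5.92, 6.03 and 5.75 at 12 h, 5.49, 5.33 and 5.41 at 36 h and 5.41, 5.47 and 5.68 at 48 h. The 12 h arrays were all above and the 36 h arrays all below the untreated ones, while the 48 h arrays overlapped them. It rose by 0.25 ± 0.07 at 12 h (limma, adjusted p = 0.0194), fell by 0.24 ± 0.07 at 36 h (adjusted p = 0.0212) and was at -0.13 ± 0.07 at 48 h (adjusted p = 0.218). Both calls were lost when 1 of 4 arrays was left out. At 12 h these were untreated replicates 1 and 2 and 12 h replicates 1 and 2 (0.18 to 0.25), and at 36 h untreated replicates 2 and 3 and 36 h replicates 2 and 3 (-0.24 to -0.20).

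The GINS members Gins1 and Gins3, whose products join Cdc45 at the ring, were not called at any single time. Gins1 was at -0.12 at 48 h (95% interval -0.36 to 0.11) and changed over the course by the F-test (limma, adjusted p = 0.00527). Gins3, whose promoter is printed above with its E2F match, was at 0.15 (interval -0.10 to 0.41).

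Of the 4 measured members of the polymerase and primase group, Pole fell, while the 3 measured genes of the polymerase α and primase complex, which starts each new strand, were not called at any time. Pole, the catalytic subunit of the leading strand polymerase, read 5.03, 4.97 and 4.91 without drug, 4.26, 4.15 and 4.44 at 24 h, 4.12, 3.91 and 4.14 at 36 h and 3.99, 3.98 and 3.88 at 48 h. All arrays from 24 h on lay below all earlier arrays. Pole fell by 0.69 ± 0.11 at 24 h, 0.91 ± 0.11 at 36 h and 1.02 ± 0.11 at 48 h (limma, adjusted p = 5.23e-05, 8.74e-07 and 1.45e-07), a 2.03-fold lower level. For Pola1, the catalytic subunit of polymerase α, the 48 h change was -0.03, with a 95% interval of -0.27 to 0.21. Pola2, its regulatory subunit, was at 0.05 (interval -0.10 to 0.20), and Prim1, the primase, at -0.10 (interval -0.33 to 0.14).

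The sliding clamp and 1 of the measured subunits of its loader fell. Pcna, the clamp that holds polymerases on DNA, was the brightest member, at 9.83, 9.61 and 9.59 without drug, 9.24, 9.21 and 9.35 at 24 h and 9.07, 9.30 and 9.34 at 48 h. No array at 24 h, 36 h or 48 h reached an untreated one. It fell by 0.41 ± 0.08 at 24 h and by 0.44 ± 0.08 at 48 h (limma, adjusted p = 3.10e-04 and 1.40e-04). Pcna was also the only member called lower at 12 h, by 0.27 ± 0.08 (adjusted p = 0.0173), a call that was lost without untreated replicate 1 (-0.19), 12 h replicate 1 (-0.24) or 12 h replicate 3 (-0.22).

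Rfc5, a subunit of the clamp loader, read 7.36, 7.18 and 7.34 without drug and 6.76, 6.86 and 6.89 at 48 h, with no overlap. It fell by 0.32 ± 0.09 at 24 h, 0.25 ± 0.09 at 36 h and 0.46 ± 0.09 at 48 h (limma, adjusted p = 0.00865, 0.0473 and 3.37e-04). The 24 h call was lost without 24 h replicate 1 (-0.27). The 36 h call was lost without untreated replicate 1 or 3 or any of the 36 h arrays (-0.28 to -0.19), and with the replicate number as a block. Rfc3, another subunit of that loader, was not called, with 6.17, 6.48 and 6.66 at 48 h around the untreated 6.36, 6.34 and 6.28 and a change of 0.11 (95% interval -0.10 to 0.31).

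The lagging strand members Fen1 and Lig1 were not called at any single time, while the uracil repair gene Ung rose early and stayed high. Lig1 changed over the course by the F-test (limma, adjusted p = 0.0254). Fen1, the nuclease that trims Okazaki fragments, was at -0.23 at 48 h (95% interval -0.48 to 0.02), and Lig1, the ligase that joins them, at -0.15 (interval -0.35 to 0.06). Ung encodes the glycosylase that removes uracil from DNA. Its arrays read 4.86, 4.85 and 4.85 without drug, 5.30, 5.02 and 5.02 at 6 h, 5.44, 5.41 and 5.51 at 12 h, 5.73, 5.53 and 5.63 at 24 h, 5.71, 5.64 and 5.73 at 36 h and 5.59, 5.85 and 5.87 at 48 h. From 6 h on, every treated array lay above every untreated array.

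Ung was the only member called higher at 36 h and 48 h. It rose by 0.26 ± 0.08 at 6 h, by 0.60 ± 0.08 at 12 h, by 0.78 ± 0.08 at 24 h, by 0.84 ± 0.08 at 36 h and by 0.92 ± 0.08 at 48 h. The adjusted p-values of limma were 0.0338, 1.15e-05, 1.69e-07, 4.68e-08 and 9.91e-09, and the level at 48 h was 1.89-fold that of untreated cells. The 6 h call was lost with the replicate number as a block, without any 1 of the untreated arrays (0.26 to 0.27) and without 6 h replicate 1 (0.17). In the RefSeq gene table of GRCm38.p6, Ung on chromosome 5 overlaps Alkbh2 and is followed by Acacb, and these neighbors were looked at after the values of Ung were seen. Alkbh2, a DNA alkylation repair enzyme, rose by 0.48 ± 0.12 at 24 h and 0.82 ± 0.12 at 48 h (adjusted p = 0.00522 and 1.28e-05). Acacb, an acetyl-CoA carboxylase, rose by 0.51 ± 0.08 at 24 h and 0.61 ± 0.08 at 48 h (adjusted p = 3.39e-05 and 3.07e-06). Neither neighbor was called at 6 h or 12 h.

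Of the genes for nucleotide supply, both Rrm2 and Tk1 fell by more than 1 log2 unit at 48 h, while Rrm1 rose for a time. For Tk1 this was the brighter of 2 probe sets annotated to it alone. Rrm2, the small subunit of ribonucleotide reductase, which is made in S phase, read 6.40, 6.45 and 6.27 without drug, 5.90, 5.76 and 6.08 at 24 h, 5.35, 5.30 and 5.59 at 36 h and 5.03, 5.23 and 5.60 at 48 h. Treated arrays lay below the untreated ones at all 3 times. Rrm2 fell by 0.46 ± 0.12, 0.96 ± 0.12 and 1.09 ± 0.12 at these times (limma, adjusted p = 0.00748, 1.78e-06 and 2.48e-07), and the 24 h call was lost without 24 h replicate 2 (-0.38). Its printed stretch of promoter holds none of the E2F patterns searched, while that of Gins3 holds 1.

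Tk1, the salvage enzyme thymidine kinase 1, read 5.58, 5.48 and 5.98 without drug, 5.02, 5.21 and 5.18 at 24 h, 4.80, 4.77 and 4.77 at 36 h and 4.68, 4.78 and 4.27 at 48 h. No treated array at these times reached an untreated one. Tk1 fell by 0.54 ± 0.12, 0.90 ± 0.12 and 1.10 ± 0.12 (limma, adjusted p = 0.00185, 4.68e-06 and 2.07e-07). The other probe set for Tk1 alone changed less, by -0.23, -0.54 and -0.72 at these times, and was not tested. Rrm1, the large subunit of ribonucleotide reductase, rose by 0.24 ± 0.07 at 6 h, 0.28 ± 0.07 at 12 h and 0.23 ± 0.07 at 24 h (adjusted p = 0.0249, 0.00660 and 0.0279). At 48 h Rrm1 was at 7.98, 8.09 and 8.11 around the untreated 8.15, 8.01 and 7.95, a change of 0.03 ± 0.07. The 6 h call of Rrm1 was lost without untreated replicates 2 or 3 or 6 h replicate 3 (0.17 to 0.22), and the 24 h call without untreated replicates 2 or 3 or 24 h replicates 1 or 3 (0.18 to 0.24).

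In the chromatin group, Uhrf1 and Chaf1a fell at all 3 late times. Uhrf1, which brings the maintenance methyltransferase to newly copied DNA, read 4.69, 4.54 and 4.87 without drug, 3.75, 3.91 and 4.01 at 24 h, 3.53, 3.82 and 3.69 at 36 h and 3.75, 3.67 and 3.47 at 48 h. Every array from 24 h on lay below every earlier array. Uhrf1 fell by 0.81 ± 0.11, 1.02 ± 0.11 and 1.07 ± 0.11 (limma, adjusted p = 4.74e-06, 1.39e-07 and 5.57e-08). It was also the only member lower at 6 h, by 0.42 ± 0.11 (adjusted p = 0.00905), at 4.34, 4.19 and 4.32, and it was not called at 12 h, at 4.76, 4.58 and 4.50. The 6 h call was lost without untreated replicate 3 (-0.33).

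Chaf1a, the large subunit of the histone chaperone CAF-1, read 5.58, 5.54 and 5.54 without drug, 5.05, 5.13 and 5.08 at 24 h and 4.92, 5.28 and 5.31 at 48 h, with no overlap. It fell by 0.46 ± 0.10 at 24 h and 0.39 ± 0.10 at 48 h (limma, adjusted p = 0.00110 and 0.00509), and the 48 h call was lost without 48 h replicate 1 (-0.26). Chaf1b, another CAF-1 subunit, fell by 0.51 ± 0.14 at 36 h (adjusted p = 0.00769), a call lost without 36 h replicate 2 (-0.36). At 24 h and 48 h it was at -0.37 ± 0.14 and -0.36 ± 0.14, just outside the threshold (adjusted p = 0.0603 and 0.0562).

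The 3 regulators of the G1/S transition went different ways. E2f1, an activating E2F factor, read 7.02, 7.01 and 6.86 without drug and 6.48, 6.73 and 6.74 at 48 h. The groups did not overlap, and E2f1 fell by 0.28 ± 0.09 at 36 h and 0.31 ± 0.09 at 48 h (limma, adjusted p = 0.0177 and 0.00799). The 36 h call was lost without untreated replicates 1 or 2 or 36 h replicates 1 or 2 (-0.26 to -0.25), and the 48 h call without 48 h replicate 1 (-0.23). E2f2, a related factor, was among the dimmest members, at 3.05 to 3.71 over all arrays, and was not called at any time. Ccne1, the cyclin E1 that drives entry into S phase with Cdk2, rose by 0.31 ± 0.08 at 6 h and 0.28 ± 0.08 at 12 h (adjusted p = 0.00537 and 0.0105). Its arrays at 12 h, at 8.07, 8.09 and 8.09, lay above the untreated 7.78, 7.80 and 7.83, and at 48 h, at 7.68, 7.76 and 7.73, they lay below them without a call (-0.08 ± 0.08).

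**Figure D3:**
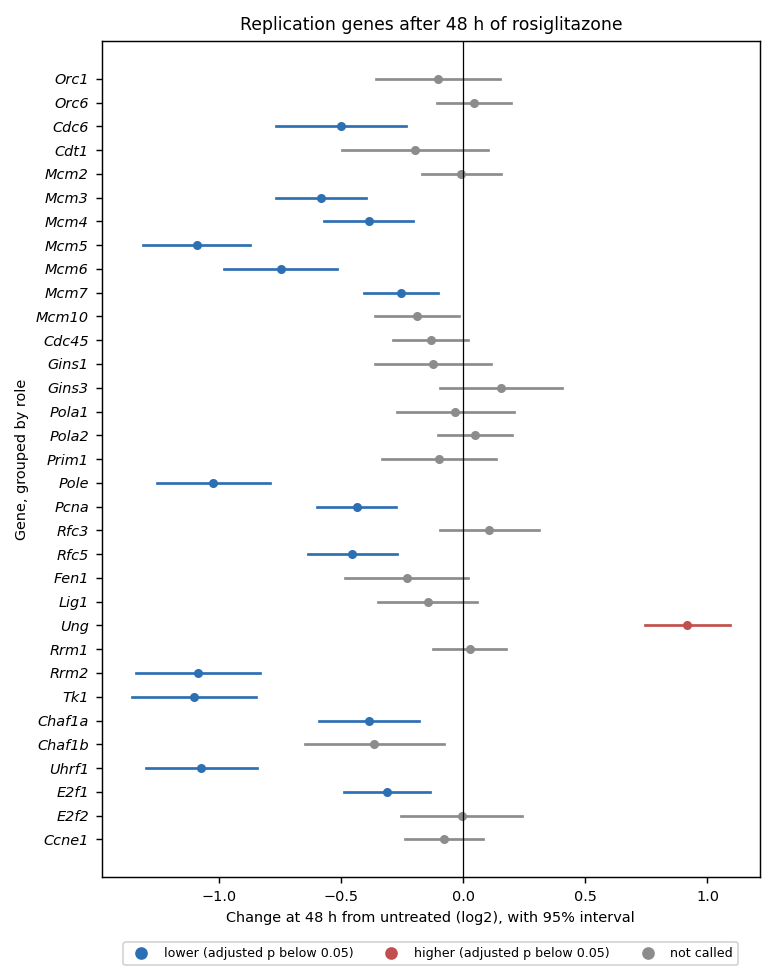
Change of each of the 33 replication genes at 48 h from untreated cells (points, log2) with its 95% interval from limma (lines, 3 arrays per group, not adjusted for the number of genes), colored by call. Of the 33, 14 are lower, with Tk1, Mcm5, Rrm2, Uhrf1 and Pole beyond -1, and Ung is higher.

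The fall was placed in time by setting each group against the one before it. From 12 h to 24 h, 10 members fell and 0 rose (30.3% lower, against 1.66% of all genes lower and 1.27% higher): Mcm3, Mcm5, Mcm6, Mcm10, Cdc45, Pole, Rrm2, Tk1, Chaf1a and Uhrf1. In this step Mcm5 fell by 0.92 ± 0.11, Uhrf1 by 0.72 ± 0.11, Rrm2 by 0.58 ± 0.12 and Tk1 by 0.57 ± 0.12 (limma, adjusted p = 1.81e-05, 4.83e-04, 0.00954 and 0.0117). Mcm5 had been called higher at 12 h, by 0.35 ± 0.11, and against untreated it was 0.57 ± 0.11 lower at 24 h. Mcm10 and Cdc45 fell by 0.47 ± 0.08 and 0.33 ± 0.07 (limma, adjusted p = 0.00203 and 0.0150), also from a raised level at 12 h, and neither was called lower than untreated at 24 h. Of the 3 arrays at 12 h, replicate 3 had the lowest mean level of the members, at 5.87 against 6.03 and 6.04, beside 5.86 to 5.93 in untreated cells. Leaving out 1 array gave 6 to 11 calls, with 6 without 24 h replicate 2, and the calls of Mcm3, Mcm5, Mcm6, Mcm10 and Uhrf1 held in each case. Without replicate 1 of every group, or replicate 2 of every group, 1 call was left, that of Mcm5.

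Later steps gave fewer calls. From 24 h to 36 h and from 36 h to 48 h, 0 members were called (0.0532% of all genes higher and 0.101% lower in the first step, 0.0106% and 0.00532% in the second). From 24 h to 48 h, a comparison added after the data were seen, 3 members fell (9.09%, against 0.745% of all genes) and 0 rose (0.713% of all genes). Mcm5 fell by 0.52 ± 0.11, Rrm2 by 0.63 ± 0.12 and Tk1 by 0.56 ± 0.12 (limma, adjusted p = 0.0119, 0.00897 and 0.0182). Without 24 h replicate 3, 0 of these calls were left, at -0.45, -0.54 and -0.54. The Mcm5 call was also lost without 48 h replicate 1 (-0.39), and that of Tk1 without 24 h replicate 2 (-0.52) or 48 h replicate 3 (-0.41).

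Earlier, from 2 h to 6 h, Ccne1 rose by 0.54 ± 0.08 and Ung by 0.27 ± 0.08, while Uhrf1 fell by 0.59 ± 0.11 and Pole by 0.43 ± 0.11 (limma, adjusted p = 3.89e-05, 0.0464, 8.46e-04 and 0.0137). This was 2 of 33 members each way (6.06%), against 4.27% of all genes higher and 4.89% lower. The Ung call was lost with the replicate number as a block (adjusted p = 0.0764), without any 1 array of 2 h or without 6 h replicate 1 (0.17 to 0.30), and that of Pole without 2 h replicate 2 or 3 or 6 h replicate 1 (-0.42 to -0.33). From 6 h to 12 h, Mcm10 and Ung were called higher (6.06%, against 0.564% of all genes) at adjusted p-values of 0.0499 and 0.0489. With the replicate number as a block, 0 members were called in that step, and leaving out single arrays left 0 or 1.

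The members without a call at any single time came from every role except nucleotide supply and the chromatin group. A total of 12 were not called against untreated at any of the 8 times: Orc1, Cdt1, Mcm2, Gins1, Gins3, Pola1, Pola2, Prim1, Rfc3, Fen1, Lig1 and E2f2. Of these, Cdt1, Gins1 and Lig1 were called by the F-test over the course, and the other 9 were not. At 48 h the changes of the 12 lay between -0.23 for Fen1 and 0.15 for Gins3. The widest of their 95% intervals, that of Cdt1, reached -0.50, so falls as large as those of Mcm5, Rrm2, Tk1, Uhrf1 and Pole lay outside the intervals of all 12.

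Several members had further probe sets. A second set for Pcna alone was 0.45 lower at 48 h than in untreated cells, at 9.23 ± 0.15 against 9.68 ± 0.12 (mean ± SD, n = 3), and a second set for Tk1 was 0.72 lower, at 4.48 ± 0.30 against 5.20 ± 0.09. A second set for Fen1 was dim, at 3.53 ± 0.28 against 3.42 ± 0.04. Of the members seen only through shared sets, the set of Gse1 and Gins2 changed by -0.58 at 48 h, both sets of Tyms and its pseudogene Tyms-ps by -0.43 and -0.48, the set of Rfc4 and Eif4a2 by 0.16, and that of Ints8 and Ccne2 by 0.30. The set of Ubxn6 and Chaf1a changed by 0.24 at 36 h and 0.05 at 48 h, times at which the set of Chaf1a alone was lower, and the set of Afmid and Tk1 changed by -0.15 at 48 h. These sets were not tested, and which gene of a set gave the signal cannot be told apart.

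Other replication genes, a list of 32 measured genes that are no members, moved both ways. At 48 h, 8 were lower and 3 higher, beside 11.4% and 12.6% of all genes, and their median change was -0.01 beside 0.01 for all genes. At 24 h, 5 were lower and 6 higher, beside 10.5% and 10.1% of all genes. Pold2, a subunit of the lagging strand polymerase, fell by 0.62 ± 0.11 at 24 h and 0.43 ± 0.11 at 48 h (limma, adjusted p = 1.48e-04 and 0.00497). Pole2, the partner of Pole, fell by 0.36 ± 0.09 at 48 h, the checkpoint and initiation factor Topbp1 by 0.40 ± 0.11, and the histone chaperone Asf1b by 0.29 ± 0.07 (adjusted p = 0.00248, 0.00719 and 0.00290). Without 48 h replicate 1, the 48 h calls of Pold2 (-0.30) and Topbp1 (-0.28) were lost.

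Among 28 measured G1 and E2F regulators, 10 were lower and 4 higher at 48 h (11.4% and 12.6% of all genes), with a median change of -0.06. Ccnd1, the cyclin D1 that starts the phosphorylation of retinoblastoma proteins, read 8.11, 8.25 and 8.30 without drug, 7.58, 7.68 and 7.76 at 6 h and 7.01, 6.67 and 6.62 at 48 h. It fell by 1.15 ± 0.10 at 24 h and 1.46 ± 0.10 at 48 h (limma, adjusted p = 4.58e-09 and 6.37e-11). Ccna2, the cyclin A2 of S phase and G2, read 7.06, 7.02 and 7.05 without drug, 6.78, 6.53 and 6.45 at 24 h and 4.99, 4.97 and 5.14 at 48 h. It fell at both times, with changes of -0.45 ± 0.12 at 24 h and -2.01 ± 0.12 at 48 h (adjusted p = 0.00791 and 6.81e-12). Rbl1, the retinoblastoma relative p107, fell by 0.44 ± 0.07 at 48 h (adjusted p = 4.67e-05), and Cdkn1b, the Cdk inhibitor p27, fell early and came back. Cdkn1b read 9.25, 9.20 and 9.31 without drug and 8.75, 8.79 and 8.68 at 2 h, a fall by 0.51 ± 0.06 (limma, adjusted p = 2.95e-06), and it was 0.45 ± 0.06 lower at 6 h (adjusted p = 8.92e-06) and at 0.05 ± 0.06 at 48 h.

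Genes of mitosis fell too, some at 6 h and most of them at 36 h and 48 h. Of 20 measured mitosis genes, 4 were lower at 6 h (2 without 6 h replicate 2), where their mean level, 5.30 to 5.31, lay below the untreated 5.48 to 5.51, and 1 was lower at 12 h. Of the same 20, 7 were lower at 24 h, 17 at 36 h and 18 at 48 h, 0 were higher at these times, and the median change was -0.26, -0.76 and -0.79. From 12 h to 24 h, the step in which 10 members fell, 0 of the 20 were called. In that step 1.66% of all genes were lower and 1.27% higher. From 24 h to 36 h, where 0 members were called, 7 of the 20 fell (0.101% of all genes lower). Whether the timing of the lists differed was not tested. Mki67, the proliferation antigen Ki-67, fell, with changes of -0.41 ± 0.14 at 24 h and -1.98 ± 0.14 at 48 h, as did Top2a, topoisomerase IIα, with -0.56 ± 0.13 and -1.68 ± 0.13 (limma, adjusted p = 0.0365 and 9.75e-11, 0.00296 and 6.80e-10). The spindle motor Kif11 fell by 1.23 ± 0.11 and cyclin B2, Ccnb2, by 1.46 ± 0.13 at 48 h (adjusted p = 6.90e-09 and 2.99e-09). The 24 h call of Mki67 was lost without any 1 untreated array or 24 h replicates 2 or 3 (-0.43 to -0.35).

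Of 12 measured S phase repair genes, 4 were lower and 0 higher at 48 h (11.4% and 12.6% of all genes). These were Exo1, Fancd2, Rad54l and Fanca, at -0.44 ± 0.08, -0.38 ± 0.09, -0.64 ± 0.10 and -0.43 ± 0.09. Of 11 measured p53 target genes, 4 were lower and 1 higher at 2 h, 5 lower and 1 higher at 6 h, 3 lower and 0 higher at 24 h, and 2 lower and 0 higher at 48 h. Of all genes, 2.87%, 8.18%, 10.5% and 11.4% were lower at these times, and 3.04%, 8.39%, 10.1% and 12.6% were higher. The count of 5 p53 target genes at 6 h was 3 without untreated replicate 1 or 3 or without 6 h replicate 1 or 3. Gadd45a fell by 0.92 ± 0.10 and Plk2 by 0.99 ± 0.16 at 2 h (limma, adjusted p = 6.81e-07 and 1.57e-04), and neither was called at 24 h or 48 h. Trp53inp1 was 0.94 ± 0.16 lower at 2 h and 0.61 ± 0.16 lower at 24 h (adjusted p = 2.30e-04 and 0.00536), and Ei24 rose by 0.34 ± 0.07 at 6 h (adjusted p = 8.67e-04) and was not called at 24 h or 48 h.

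Markers of preadipocytes and fibroblasts, cells that a 3T3-L1 culture can still hold, were lower at the same times as the members. Of 16 measured, 11 were lower and 0 higher at 24 h, 10 lower and 1 higher at 36 h, and 11 lower and 0 higher at 48 h. Of all genes, 10.5%, 10.5% and 11.4% were lower at these times, and 10.1%, 10.9% and 12.6% were higher. The mean level of the markers was 7.91 to 7.95 in the untreated arrays, 7.76 to 7.82 at 2 h, 7.67 to 7.70 at 6 h and 7.61 to 7.75 at 12 h. It was 7.53 to 7.67 at 24 h and 7.54 to 7.57 at 48 h. It was thus already below the untreated range at 2 h, where 3 of the 16 markers were called lower and 0 higher. At 6 h, 4 of the 16 were lower and 0 higher, so most markers were not called at these times. Of all genes, 2.87% were lower at 2 h and 8.18% at 6 h. The mean of the members, 5.91 to 5.94 at 2 h and 5.84 to 5.88 at 6 h, still overlapped the untreated 5.86 to 5.93. S100a4 fell by 1.38 ± 0.11, Dlk1 by 0.74 ± 0.07, Fn1 by 0.56 ± 0.08 and Sox9 by 0.45 ± 0.09 at 48 h (limma, adjusted p = 1.45e-09, 3.12e-08, 5.06e-06 and 6.03e-04). Sox9 read 7.12, 7.22 and 6.99 without drug, 6.18, 6.17 and 6.14 at 6 h and 6.78, 6.61 and 6.58 at 48 h. Of the 16 markers, 1, Cd34, lay below the olfactory level in untreated cells, and their median was 8.16. Their part in the result was not tested.

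**Figure D4:**
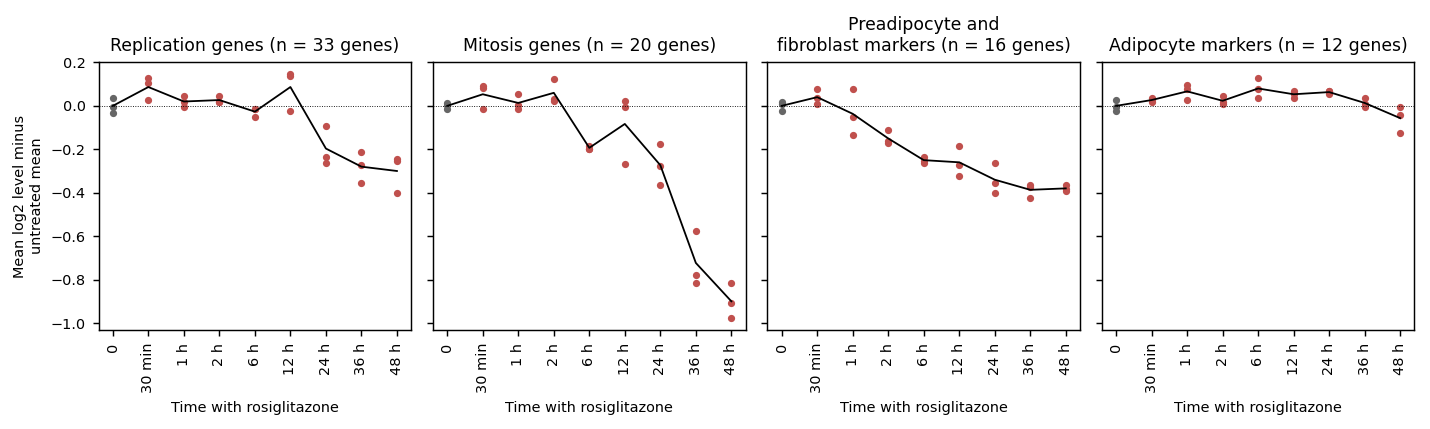
Mean log2 level of 33 replication genes, 20 mitosis genes, 16 preadipocyte and fibroblast markers and 12 adipocyte markers in each array (points), minus the untreated mean of that list, with the group mean (line), against time with rosiglitazone (categories, not to scale). The replication genes drop at 24 h, the mitosis genes further at 36 h and 48 h, the preadipocyte markers from 2 h on, and the adipocyte markers stay within 0.2 of the untreated level.

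Adipocyte markers moved both ways. Of 12 measured, 5 were higher and 3 lower at 24 h (10.1% and 10.5% of all genes), and 1 was higher and 3 lower at 48 h (12.6% and 11.4%). Their mean level was 11.31 to 11.36 in untreated arrays and 11.21 to 11.33 at 48 h. Pparg, the target of the drug, fell by 0.30 ± 0.05 and Dgat2, an enzyme of triglyceride synthesis, by 0.54 ± 0.06 at 48 h, while the fatty acid transporter Cd36 rose by 0.43 ± 0.08 (limma, adjusted p = 5.55e-05, 3.83e-07 and 2.56e-04). Cebpa rose by 0.24 ± 0.08 at 24 h (adjusted p = 0.0232), a call lost without untreated replicates 2 or 3 or 24 h replicates 2 or 3 (0.21 to 0.23). Of 8 macrophage markers, 2 were lower and 0 higher at 48 h (11.4% and 12.6% of all genes). These 2 were Lyz2, lower by 0.94 ± 0.17, and Cd14, lower by 0.66 ± 0.22 (limma, adjusted p = 1.85e-04 and 0.0330). The call of Cd14 was lost without untreated replicates 1 or 3 or 48 h replicates 1 or 2 (-0.69 to -0.40). The mean level of the 8 macrophage markers ran from 3.70 to 3.80 in untreated arrays and from 3.52 to 3.64 at 48 h.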

How the data were processed

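The authors deposited log2 intensities per probe set for 27 arrays. The submitters' processing notes name Partek, an analysis package, and RMA (background correction, normalization and summary of probes), with no version and no role for either, and the build behind the array is not given in the sources used here. Of 28815 probe sets, 21153 carried 1 symbol, 1867 several and 5795 none, and 21123 of the 21153 were matched by Entrez identifier, with 0 symbols changed. Where a gene had several sets (1367 genes), the one with the highest mean was kept, which gave 18781 genes, with no filter on dim genes.

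A model of the group means was fitted to all 27 arrays by lmFit and eBayes of limma 3.58.1, run in R 4.3.3. Tests were two-sided, adjusted by Benjamini-Hochberg over all 18781 genes of a comparison, and called at an adjusted p below 0.05. The moderated F-test covered the 8 comparisons with untreated. Steps were checked on simulated data.

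The members and the 8 further lists (139 of 151 entries measured) were chosen with earlier results of these data known. Named are all members, with most detail for the 10 with the smallest F-test p, and up to 4 genes per list with the smallest. Alternatives were a block for the replicate number, a filter at the median mean, the mean of probe sets, centred arrays, a further quantile normalization, a trended robust variance, array weights, each replicate number left out, the 6 arrays compared alone, 30 min arrays as the baseline, and single arrays left out. The equal replicate means show that replicate numbers had been adjusted for before deposit, by a step not stated in the sources used here. That adjustment also sets the mean correlation of residuals between arrays with the same number (-0.12 over 108 pairs), so whether the numbers pair cultures cannot be told from these values. The fit without a block counts 18 residual degrees of freedom where 16 are left, so its p-values are somewhat small. Array medians lay between 4.02 and 4.13, with 0 identical pairs. Plots were drawn with matplotlib 3.10.9 in Python 3.11.15.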

Additional observations from a re-analysis of the deposited data

How the results depend on the processing

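Of 58 called member changes from untreated, 29 kept their call and direction in every alternative, and 28 of the 45 at 24 h, 36 h and 48 h did. With the replicate number as a block, the fit that counts the adjustment already made in the deposited values, 2 members were higher at 6 h, 1 from 2 h to 6 h and 0 from 6 h to 12 h. Further quantile normalization gave 2 higher and 2 lower at 6 h and 1 higher at 24 h. Trended variance gave 2 lower at 6 h and 1 higher from 2 h to 6 h, and the median filter 1 lower at 2 h and from 2 h to 6 h. The 6 arrays compared alone gave 2 higher at 6 h, 0 lower at 12 h, 1 higher at 24 h, 1 higher from 2 h to 6 h and 0 lower from 24 h to 48 h. From 6 h to 12 h, 0 were higher with quantile normalization, trended variance, the 6 arrays alone, centring or weights, and 1 with the filter or the mean of sets. Array weights gave 1 each way at 2 h, 2 higher and 3 lower from 24 h to 36 h, and 1 higher from 24 h to 48 h. Against 30 min arrays, 1 each way was called at 2 h, 6 lower at 6 h and 2 at 12 h, and Mcm5 turned to -0.35 at 6 h (limma, adjusted p = 0.0222) and -0.018 at 12 h (adjusted p = 0.937). The cause was not tested. Leaving out 1 replicate number gave 0 to 1 higher and 0 to 1 lower at 6 h, 1 to 7 and 0 to 1 at 12 h, 1 to 2 and 7 to 12 at 24 h, 10 to 13 lower at 36 h, 1 to 2 higher and 9 to 15 lower at 48 h, 1 to 10 lower from 12 h to 24 h, 0 to 1 lower from 24 h to 48 h and 17 to 23 over the course. Single arrays gave 1 to 4 higher at 6 h, 4 to 8 at 12 h, and 10 to 14, 11 to 13 and 11 to 15 lower at 24 h, 36 h and 48 h. Centring gave 11, 11 and 13 lower at these times.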
